A study of Rattus norvegicus with 24 samples.

Results

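RT1-CE5 and RT1-CE7 are class I histocompatibility genes of the rat, and they are the 2 genes described here out of 32883 in a kidney RNA-seq count table. They were taken by their Ensembl identifiers, ENSRNOG00000000723 for RT1-CE5 and ENSRNOG00000031090 for RT1-CE7, and both passed the filter on low counts that kept 14212 genes for testing. The study asked how the maternal kidney adapts to pregnancy in a strain whose pregnancies resemble preeclampsia, the Brown Norway (BN) rat, and in Sprague-Dawley (CD) rats, whose pregnancies serve as the normal reference. Kidney pieces holding cortex and medulla came from 12 rats, and each rat gave RNA-seq and reduced representation bisulfite sequencing (RRBS), which reads the methylation of single CpGs. CD-NP and BN-NP were non-pregnant rats of each strain, and CD-P18 and BN-P18 were rats at day 18 of a pregnancy sired by a male of their own strain, with n = 3 in each group. The labels give no treatment beyond mating. All rats were females labelled as 2 months old, the age at which the study obtained them. CD rats were outbred and BN rats inbred, so CD rats of a group could carry different alleles of these genes.

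Class I molecules are cell-surface proteins that pair with beta-2 microglobulin and display peptides from inside the cell to CD8+ T cells and natural killer cells. In the rat the histocompatibility complex is named RT1, its classical class I genes lie in the RT1-A region, and the RT1-CE genes belong to a cluster of largely non-classical class I genes whose number and sequence vary between strains. Transcription of class I genes is driven by the transactivator Nlrc5, by NF-kappaB at a promoter element called enhancer A and by interferon regulatory factors at the interferon-stimulated response element (ISRE), while the proteasome subunit Psmb9 and the transporter Tap1 supply the peptides.

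The RT1-CE5 promoter is shown first because methylation was read within it. The window, from RefSeq on build GRCr8 (chr20:3484041-3484340, minus strand), runs 5′ to 3′ from 250 bases before the annotated start to 50 bases from the start on. Capitals mark 7 CpGs that RRBS covered on that strand.
RT1-CE5: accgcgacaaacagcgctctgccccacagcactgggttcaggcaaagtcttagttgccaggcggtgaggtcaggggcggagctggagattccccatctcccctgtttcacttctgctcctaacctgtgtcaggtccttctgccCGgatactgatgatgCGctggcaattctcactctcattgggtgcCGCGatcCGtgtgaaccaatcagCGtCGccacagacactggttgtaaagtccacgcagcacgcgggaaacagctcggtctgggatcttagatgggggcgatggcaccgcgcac

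The window held 19 CpGs, against a median of 7 over the 33469 promoters of the same length and a range of 0 to 19 over 33 class I promoters. On both strands, the letters GGGGATTCC, the core of enhancer A, were absent from the RT1-CE5 window and present in 9 of the 33 class I promoters and in 0.281% of all promoters. The letters TTTCACTT, part of the ISRE, stood at bases 105 to 112 of the window, in 13 of the 33 class I promoters and in 1.73% of all. CCAAT boxes stood at bases 203 to 207 and, on the other strand, at bases 179 to 183, a motif held by 37.5% of all promoters. The 3 motifs did not overlap one another.

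A stretch of 48 bases around these elements is printed to show what RT1-CE5 carries in place of the enhancer A core, beside RT1-A1, a class I gene with higher RNA in BN kidneys, and RT1-CE11, a neighbour in the same cluster. The stretches lie at chr20:3484223-3484270 (minus strand), chr20:4907070-4907117 (plus strand) and chr20:3363338-3363385 (minus strand) of GRCr8, from RefSeq. Capitals mark the 9 bases at the enhancer A position and the 8 bases of the ISRE core.
RT1-CE5: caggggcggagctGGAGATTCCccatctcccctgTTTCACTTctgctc
RT1-A1: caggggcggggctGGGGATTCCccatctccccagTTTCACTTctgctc
RT1-CE11: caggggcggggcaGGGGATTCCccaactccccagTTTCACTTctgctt

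Counted from 1 at the 5′ end of the stretch, with the base of RT1-CE5 first, RT1-A1 differed by A10G, A16G and T33A, and 45 of 48 bases were the same. A16G lies inside the enhancer A core, and RT1-CE11 shared it as 1 of 6 differences. The letters GGAGATTCC of RT1-CE5 were held by 2 of the 33 class I promoters and 0.251% of all. These letters describe the reference assembly and say nothing of the alleles in the CD rats or of binding. The promoter of RT1-CE7 is not printed here.

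RT1-CE5 and RT1-CE7 RNA was lower in BN than in CD kidneys at both stages. In non-pregnant rats, RT1-CE5 was 4.93-fold and RT1-CE7 4.31-fold lower in BN, and on day 18 the factors were 3.07 and 2.5. RT1-CE7 rose 1.59-fold with pregnancy in BN kidneys, and neither gene passed the test for a pregnancy change in CD kidneys. Levels below are CPM, gene counts scaled to library size with edgeR's trimmed mean of M values (TMM), and they do not compare 1 gene with another because transcript lengths were not used.

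RT1-CE5 in the CD-NP rats stood at 15.8, 15.1 and 10.3 CPM, and in the CD-P18 rats at 14.8, 12.6 and 16.6 CPM. The BN-NP rats had 1.96, 2.43 and 3.90 CPM and the BN-P18 rats 4.08, 4.01 and 6.27 CPM. Every CD rat lay above every BN rat, the CD stages overlapped, and the BN-P18 rats lay just above the BN-NP rats. The group means (± SD, n = 3 each) were 13.7 ± 2.98 CPM for CD-NP and 14.7 ± 2.03 for CD-P18. Those of BN rats were 2.76 ± 1.01 CPM for BN-NP and 4.79 ± 1.29 for BN-P18, which were different rats. Between 18 and 59 reads per BN library stood behind these values, against 94 to 173 per CD library, so the BN levels of RT1-CE5 are the least precise here.

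RT1-CE7 in the CD-NP rats stood at 47.3, 39.5 and 50.1 CPM, and in the CD-P18 rats at 39.9, 33.8 and 52.4 CPM. The BN-NP rats had 9.89, 10.3 and 11.5 CPM and the BN-P18 rats 16.7, 16.7 and 17.0 CPM. The strains again did not overlap, the CD stages did, and the BN stages were apart with little spread within each. The means (± SD, n = 3 each) were 45.6 ± 5.51 CPM for CD-NP and 42.1 ± 9.46 for CD-P18. Those of BN rats were 10.6 ± 0.820 CPM for BN-NP and 16.8 ± 0.171 for BN-P18. The counts ran from 85 to 183 reads in BN and from 307 to 514 in CD libraries.

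**Figure D1:**
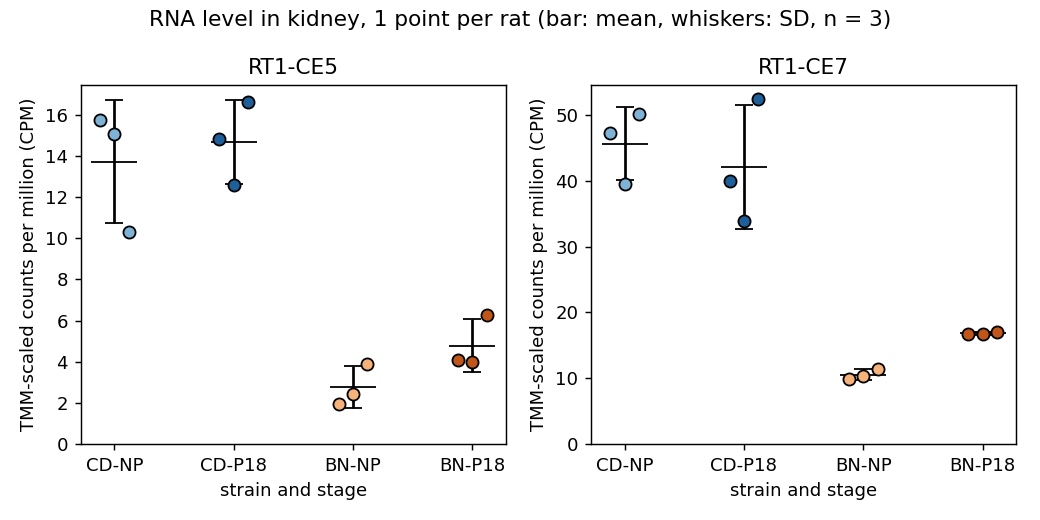
TMM-scaled CPM (vertical axis, from 0) of RT1-CE5 and RT1-CE7 in each rat by strain and stage, with the mean and SD of the 3 rats. All 6 CD rats lie above all 6 BN rats for both genes, with BN means of 2.76 and 4.79 CPM for RT1-CE5 and of 10.6 and 16.8 CPM for RT1-CE7.

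The strain comparison at the non-pregnant stage asked which genes differ in rats without a pregnancy. RT1-CE5 had a log2 fold change, BN against CD, of -2.30 (SE 0.26, adjusted p = 0.000209, quasi-likelihood test of edgeR, Benjamini-Hochberg adjusted), and it ranked 39th of 14212 genes by p. RT1-CE7 had a log2 fold change of -2.11 (SE 0.15, adjusted p = 4.16e-06 by the same edgeR test) and ranked 8th. The thresholds used throughout were 0.1 for the adjusted p and a change of more than 25%, and 8.38% of all tested genes passed them, 4.55% being lower in BN.

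On day 18 RT1-CE5 differed by -1.62 on the log2 scale (SE 0.24, adjusted p = 0.000988, edgeR's quasi-likelihood test) and RT1-CE7 by -1.32 (SE 0.14, adjusted p = 0.000125). Their ranks were 145th and 40th, with 9.6% of all genes past the thresholds and 4.7% lower in BN. Both genes remained past the thresholds at both stages whichever of the 12 libraries was left out, RT1-CE5 between -2.64 and -2.10 in non-pregnant rats and between -1.86 and -1.50 on day 18. The corresponding ranges for RT1-CE7 were -2.20 to -2.04 and -1.46 to -1.14.

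Kidney pieces are bulk samples, in which fewer cells of a type and less RNA per cell cannot be told apart. Of 14 leukocyte markers, 4 could be given a value (Ptprc, Cd4, Cd68 and Csf1r), and none was at 0. A value needed a symbol, and symbols came from the study's list of genes with a small p in these samples. The markers named thus lean towards changed genes, and a missing value is no sign of absence. The same holds for the tubule, podocyte, endothelial, class I-like and class II genes given here. The summed level of the 4 leukocyte markers in non-pregnant rats was 120 to 139 CPM for CD and 102 to 110 CPM for BN. On day 18 it was 130 to 172 CPM for CD and 133 to 141 CPM for BN. The strains did not overlap in this sum in non-pregnant rats and did on day 18. Ptprc and Cd4, the pan-leukocyte phosphatase and the T helper co-receptor, had log2 fold changes of -0.47 and -0.54 in BN-NP against CD-NP (adjusted p = 0.0480 and 0.0235, edgeR's quasi-likelihood test). The macrophage markers Cd68 and Csf1r, with 0.07 and -0.14 (adjusted p = 0.847 and 0.539 by edgeR), overlapped between the strains. On day 18 none of the 4 passed, and the proximal tubule glucose transporter Slc5a2 was lower in BN (-0.73, adjusted p = 0.00832 by edgeR). Their part in the results for RT1-CE5 and RT1-CE7 was not tested.

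Pregnancy in BN rats was compared next. RT1-CE7 rose by a log2 fold change of 0.67 (SE 0.16, adjusted p = 0.0866, quasi-likelihood test of edgeR, Benjamini-Hochberg adjusted), in a comparison where 1.4% of genes passed the thresholds and 0.823% rose. The adjusted p lay close to the threshold, and it was past 0.1, between 0.111 and 0.295, without any of the 6 BN rats or without CD-P18 replicate 1. RT1-CE5 had a larger fitted value, 0.78 (SE 0.29), that did not pass (adjusted p = 0.329 by edgeR; unadjusted p = 0.0178). In the same comparison the leukocyte sum given above did not overlap between stages, being higher on day 18, with log2 fold changes of 0.39 for Ptprc, 0.45 for Cd4, 0.33 for Cd68 and 0.32 for Csf1r, of which 0 of 4 passed. Slc5a2 fell (-0.64, adjusted p = 0.0767 by edgeR). The part of these markers in the rise of RT1-CE7 was not tested.

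In CD rats the pregnancy values were 0.10 for RT1-CE5 (SE 0.22, adjusted p = 0.878, edgeR's quasi-likelihood test) and -0.12 for RT1-CE7 (SE 0.14, adjusted p = 0.732), and 4.71% of all genes passed. The sign of either value turned when a single library was left out, to -0.07 for RT1-CE5 without CD-NP replicate 3 and to 0.02 for RT1-CE7 without CD-P18 replicate 2.

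The difference between the strains in their pregnancy change was tested by the interaction of strain and pregnancy, for which 0.943% of genes had an adjusted p under 0.1. For RT1-CE7 it was 0.78 on the log2 scale, higher in BN (SE 0.21, adjusted p = 0.143, edgeR's quasi-likelihood test), so it did not pass. It passed with DESeq2 (adjusted p = 0.0556), with no filter on low counts (0.0441) and without CD-P18 replicate 3 (0.0399). For RT1-CE5 it was 0.68 (SE 0.36, adjusted p = 0.475 by edgeR) and passed in none of the alternatives run.

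The reads of the 2 genes kept a similar proportion in all groups. RT1-CE5 made up 23.2% ± 5.51 of the reads of the pair for CD-NP and 26.1% ± 1.73 for CD-P18, against 20.3% ± 4.55 and 22% ± 4.31 for the same stages of BN (SD, n = 3 each), with overlap between all groups. Across the 12 rats their log2 CPM correlated with r = 0.957, a value that holds the distance between the strains. After each group's mean was removed r was 0.303.

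Of 16 class I genes that could be given a symbol, 14 were tested, RT1-CE5 and RT1-CE7 among them. In non-pregnant rats 8 were lower in BN and 2 higher, against 4.55% lower and 3.83% higher over all genes. On day 18 8 were lower and 5 higher, against 4.7% and 4.9%. The class I genes had a median log2 fold change of -0.72 and -0.70 at the 2 stages, against -0.0012 and 0.0053 over all genes. With pregnancy 4 of the 14 rose and 1 fell in CD, against 2.56% and 2.15% of all genes, and 4 rose and 0 fell in BN, where 0.823% of all genes rose. Those that rose in CD were RT1-S3, RT1-T24-3, RT1-T24-4 and RT1-N3. In BN, RT1-CE7 rose along with RT1-T24-3 (1.82, adjusted p = 0.0284), RT1-S3 (0.85, adjusted p = 0.0303) and RT1-N3 (0.65, adjusted p = 0.0356, edgeR's quasi-likelihood test). These other genes had smaller adjusted p than RT1-CE7 and rose in both strains. The class I symbols came from the study's list of genes with a small p in these samples, so the class I genes named here lean towards changed ones.

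Other RT1-CE genes did not all share the direction of RT1-CE5 and RT1-CE7. RT1-CE10 was lower in BN at both stages, by log2 fold changes of -1.26 and -0.77 (adjusted p = 4.75e-05 and 0.00128, edgeR's quasi-likelihood test), and so was RT1-CE4, by -0.90 and -0.72 (adjusted p = 0.0274 and 0.0546). RT1-CE15 was higher in BN on day 18, by 2.41 (adjusted p = 0.000228 by edgeR), and not past the thresholds in non-pregnant rats (0.75, adjusted p = 0.110). RT1-CE12, also counted as higher on day 18, had 1, 3 and 0 reads in the CD-P18 libraries and 16, 6 and 16 in the BN-P18 libraries, too few for a fold change to be given.

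Among genes outside the RT1-CE cluster, RT1-A1, a classical class I gene, was 1.84 and 2.21 higher in BN on the log2 scale (adjusted p = 0.0243 and 0.00738, edgeR's quasi-likelihood test). RT1-S3 was higher by 0.76 and 0.61 (adjusted p = 0.0151 and 0.0281), and RT1-N3 passed on day 18 (0.54, adjusted p = 0.0144). The genes RT1-T24-3, RT1-T24-1 and RT1-N2 were lower in BN at both stages by values between -2.82 and -1.92, and RT1-M3-1 in non-pregnant rats (-0.55, adjusted p = 0.0973). RT1-CE5 and RT1-CE7 had the 1st and 3rd most negative fitted values of the 14 in non-pregnant rats, with RT1-T24-1, on 4 to 5 reads per BN-NP library, between them. On day 18 they were 4th and 5th, after RT1-N2, RT1-T24-1 and RT1-T24-3.

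**Figure D2:**
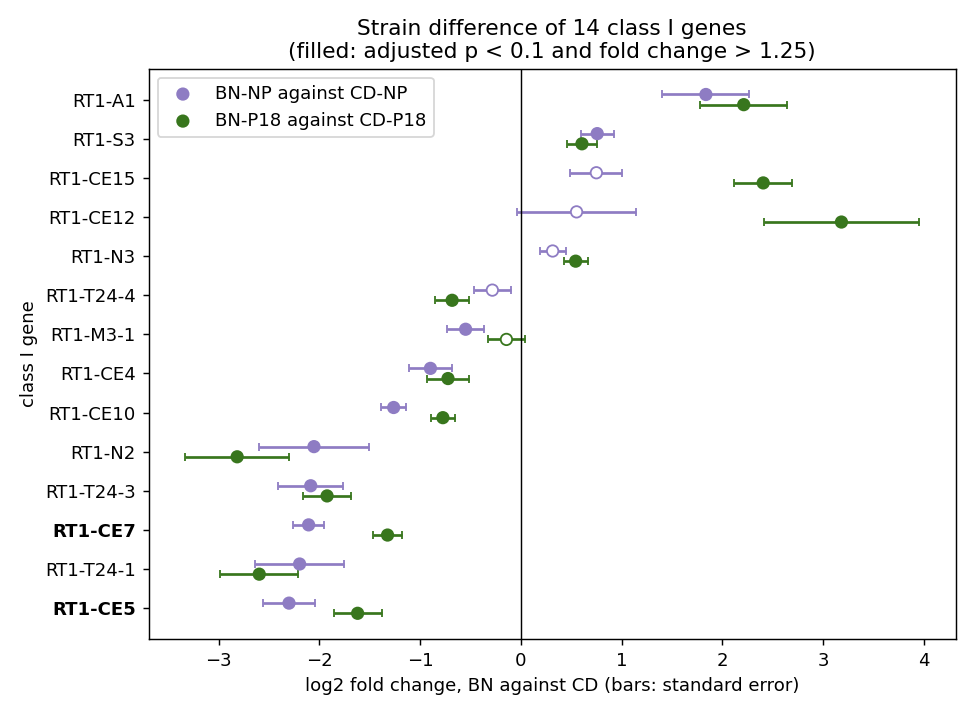
Log2 fold change of BN against CD (horizontal axis, standard error as bars) for the 14 tested class I genes, in non-pregnant rats and on day 18; filled points passed both thresholds. RT1-CE5 (-2.30 and -1.62) and RT1-CE7 (-2.11 and -1.32) lie towards the low end, and RT1-A1 (1.84 and 2.21) towards the high end. The day 18 point of RT1-CE12 rests on 0 to 3 reads per CD-P18 library and gives no rank.

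The 14 class I genes summed to 295 to 321 CPM in CD-NP and 346 to 363 CPM in BN-NP. RT1-A1 alone made up 27.1 to 90.1 CPM of this in CD-NP and 178 to 184 CPM in BN-NP, and without it the sum was 231 to 289 CPM in CD-NP and 163 to 179 CPM in BN-NP. Of the sum of all 14 genes, RT1-A1 included, RT1-CE5 and RT1-CE7 together made up 19.1% in CD-NP (18.5 to 19.9%) and 3.77% in BN-NP (3.43 to 4.36%). On day 18 they made up 15.3% in CD and 4.69% in BN. Transcript lengths were not used and only class I genes with a symbol were summed. These are therefore shares of the reads counted on those genes, not of all class I RNA. Class I genes resemble one another closely, and only reads that aligned to a single place were counted. In RefSeq's GRCr8 annotation the span of RT1-CE5 encloses RT1-CE7, and RT1-CE7 is listed as a synonym of RT1-CE5. The reads, however, were counted on Rnor_6.0 as those of separate Ensembl genes. In that build the CpG listed for RT1-CE7 lies at position 4697956 of chromosome 20. The CpGs of the RT1-CE5 promoter lie apart from it, at 4897028 to 4897098. With annotations that differ and sequences that resemble one another, the split of reads among these genes is uncertain. Between 42.9 and 47.1% of the entries of CD libraries and 42.1 and 45.4% of BN libraries aligned to several places and were left out. These shares overlapped, and their part in the RT1-CE5 and RT1-CE7 values was not tested. RNA and RRBS reads of both strains were aligned to the same reference, Rnor_6.0. Whether reads of CD and BN alleles aligned to it equally well was not tested either.

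The genes whose log2 CPM followed RT1-CE5 most closely over the 12 rats were RT1-CE10 (r = 0.974), RT1-CE7 (0.957), LOC499235 (0.956), ENSRNOG00000022144 (0.955), which had no symbol, and B4galt6 (0.946), an enzyme of glycosphingolipid synthesis. Those closest to RT1-CE7 were RT1-CE10 (0.977), LOC100134871 (0.963), LOC499235 (0.960), Armh3 (0.958) and RGD1562690 (0.958), with RT1-CE5 in 7th place. RT1-CE10 headed both orders, and all these genes shared the strain difference, with CD means above BN means. The rats fall into a CD and a BN cluster, so these correlations describe that contrast and are given with no test.

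RT1-CE7 was set beside the genes of class I antigen presentation, of which 9 of 20 had a value. In BN rats 3 of the 9 rose with pregnancy and 0 fell, against 1 and 0 in CD rats, and their median log2 fold change was 0.37 in BN and 0.11 in CD, beside 0.0002 and -0.0096 over all genes, of which 0.823% rose in BN and 2.56% in CD. As the list holds symbols chosen by p in these samples, its counts are no independent evidence. The 3 that rose in BN were Nlrc5 (0.83, adjusted p = 0.0384), Tap1 (0.82, adjusted p = 0.0767) and Psmb9 (0.63, adjusted p = 0.0951), all by edgeR's quasi-likelihood test. Erap1, which trims peptides for class I, had 0.18 in BN and 0.27 in CD and passed in neither. In CD rats the tapasin-related Tapbpl (0.78, adjusted p = 0.0916 by edgeR) passed. Psmb9 and Tapbpl were named after their values were seen.

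Nlrc5, the class I transactivator, stood in CD-NP rats at 17.7, 16.5 and 19 CPM and in CD-P18 rats at 13.1, 18.7 and 13.1 CPM. In BN-NP rats it had 9.02, 9.49 and 11.8 CPM and in BN-P18 rats 17.4, 16.3 and 20.3 CPM. Like RT1-CE7, it was lowest in BN-NP without overlap, by -0.81 on the log2 scale against CD-NP (adjusted p = 0.00914, edgeR's quasi-likelihood test). Unlike RT1-CE7, it reached the range of the CD rats in BN-P18, where the strain difference did not pass.

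**Figure D3:**
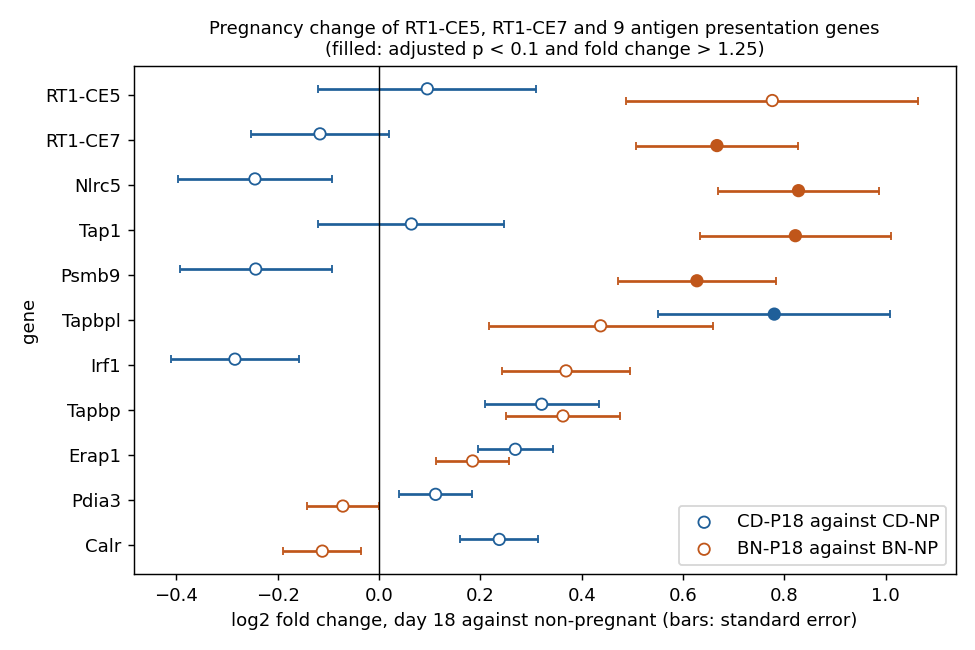
Log2 fold change of day 18 against non-pregnant (horizontal axis, standard error as bars) for RT1-CE5, RT1-CE7 and 9 antigen presentation genes in CD and BN rats; filled points passed both thresholds. RT1-CE7 (0.67), Nlrc5 (0.83), Tap1 (0.82) and Psmb9 (0.63) passed in BN rats and not in CD rats, a difference between strains that passed its own test for Nlrc5 alone of these 4.

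Interferon-stimulated genes, a list that holds known drivers of class I transcription, rose in both strains. Of 19 with a value, 17 rose in CD, where 2.56% of all genes did, and 19 in BN, against 0.823%, with median log2 fold changes of 1.12 in both, and 0 fell. This list too holds symbols chosen by p in these samples and was drawn up with earlier results known, so these counts are no independent evidence. Irf9, the DNA-binding part of the interferon-activated factor ISGF3, rose by 1.38 in CD (adjusted p = 6.7e-05) and 1.12 in BN (adjusted p = 0.000533, edgeR's quasi-likelihood test). Oas2, Parp12 and Parp9 also rose in both strains. Between strains, 1 of the 19 passed in non-pregnant rats and 3 on day 18, where 8.38% and 9.6% of all genes did, so these counts are no result about the list. Of class II genes, 3 of 12 had a value, and Ciita, the class II transactivator, was lower in BN-NP than in CD-NP (-0.75, adjusted p = 0.0104 by edgeR). Their summed level was 60.5 to 171 CPM in CD-NP and 110 to 160 CPM in BN-NP.

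Methylation at RT1-CE5 was read in RRBS at 7 CpGs on the minus strand, at positions 4897028 to 4897098 of chromosome 20 in the files' build, Rnor_6.0. No annotation of that build was at hand, so they were placed by their spacing. The same spacing occurred in the RT1-CE5 window in the same orientation, in no other of the 33469 promoters in that orientation, and in 1 run of covered minus-strand CpGs in all the RRBS files. In the printed window they lie 107 to 37 bases before the start, between the ISRE core and the start. A neighbouring non-coding gene, LOC134483853, begins just upstream on the other strand, and its own window holds the same CpGs in reverse.

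The study's table of CpGs and genes lists 6 of the 7 at the RT1-CE5 promoter for the strain difference of non-pregnant rats and 4 of those 6 for that of day 18 as well, and each was found in the files by its pooled difference. All 6 had at least 10 reads in all 12 rats, from 10 to 75, while the 7th, nearest the start, had fewer. The 6 span 68 bases, less than a read, so they were largely read on the same molecules and count as 1 measurement, not as 6.

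These promoter CpGs were almost unmethylated in every BN rat and varied widely among CD rats. At the CpG 107 bases before the start, CD-NP replicate 3 had 47.8% methylated reads (11 of 23, 95% exact Clopper-Pearson interval 26.8 to 69.4%) and CD-NP replicate 1 had 21.3% (10 of 47, 10.7 to 35.7%). CD-P18 replicates 2 and 3 had 15.2% (7 of 46, 6.34 to 28.9%) and 13.3% (10 of 75, 6.58 to 23.2%). CD-NP replicate 2 and CD-P18 replicate 1 had 0 of 18 and 0 of 27 reads, which allows levels of up to 16.7% and 11.1% when 3 reads are taken as the limit of a count of 0.

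The 6 BN rats had 0 methylated reads of 12 to 23 at that CpG, which by the same limit allows up to 25% in the shallowest, BN-NP replicate 3. Intervals and limits cover counting error only. Summed over the 6 CpGs, the CD-NP rats had 21.1%, 0% and 49.3% methylated, and the CD-P18 rats 0%, 16.2% and 16.0%. The BN rats ranged from 0 to 1.45%. So 4 of 6 CD rats lay above all BN rats, the other 2 were at 0 like them, and each stage of CD held a rat at 0. Within a rat the 6 CpGs lay close together, with 18.8 to 25.7% in CD-NP replicate 1 and 47.8 to 52.2% in CD-NP replicate 3.

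**Figure D4:**
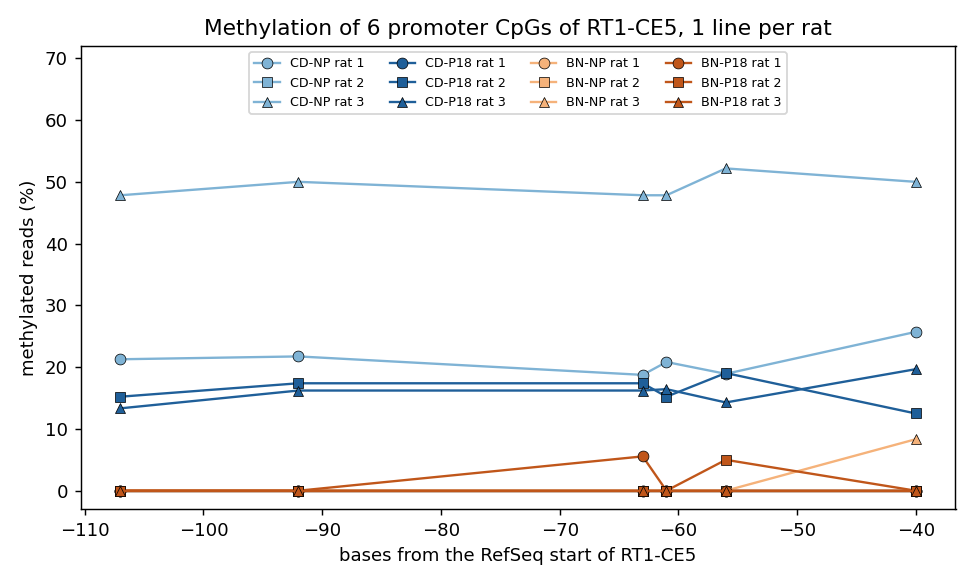
Share of methylated reads (vertical axis, %) at 6 CpGs by their distance from the RefSeq start of RT1-CE5 (horizontal axis, bases), with 1 line per rat, coloured by group and marked by replicate. CD-NP replicate 3 runs at 47.8 to 52.2% over the whole stretch, 3 other CD rats at 12.5 to 25.7%, and the other 2 CD rats and the BN rats at or near 0.

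In non-pregnant rats the pooled difference, BN minus CD, was -25.1 to -21.7 percentage points over the 6 CpGs, and on day 18 it was -14.9 to -11.5 points. Both are descriptions with no test, because all 6 CpGs were listed for the first comparison and 4 of them for the second.

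Between stages the difference was -12.4 to -8.13 points in CD and -1.79 to 1.69 points in BN, and 0 of 6 passed in either at an adjusted p under 0.05 with over 10 points, against 0.0478% and 0.000247% of all CpGs (limma-moderated logistic model). At an unadjusted p under 0.05 it was 1 of 6 in CD and 0 of 6 in BN. The non-pregnant rats of these comparisons are among those by which the CpGs were listed. The low level in BN was shared by both strains beyond the start. From 34 to 156 bases after the start, CpGs on either strand with at least 5 reads had 0.748% methylated in CD (8 of 1070 reads) and 0.744% in BN (15 of 2017). The variable methylation of the CD rats was thus read before the start of RT1-CE5 and not in the covered stretch after it. Coverage of that stretch was uneven among CD rats. CD-NP replicate 3, the most methylated, was read only from 87 bases after the start on, with 9 or 10 reads per site. CD-P18 replicates 1 and 3 were read only up to 88 bases after it.

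RNA and methylation of RT1-CE5 can be set side by side when RNA and RRBS libraries with the same replicate number are taken as 1 rat. The labels number both kinds of library alike, and this pairing was not checked. Among CD rats, CD-NP replicate 3, with 49.3% methylated, had the lowest RNA, 10.3 CPM. The next most methylated, CD-NP replicate 1 with 21.1%, had 15.8 CPM, and CD-P18 replicate 2, with 16.2%, had 12.6 CPM. CD-NP replicate 2 and CD-P18 replicate 1, with 0%, had 15.1 and 14.8 CPM, and CD-P18 replicate 3, with 16.0%, had the highest RNA, 16.6 CPM. The BN rats combined the lowest methylation with the lowest RNA, 1.96 to 6.27 CPM. With 2 strains forming separate clusters and 6 rats in each, no correlation over all rats is given.

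**Figure D5:**
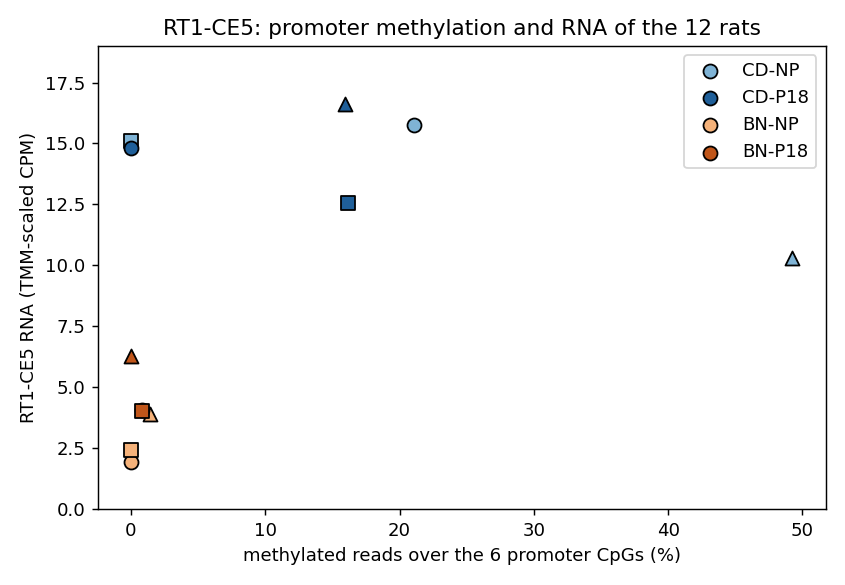
RT1-CE5 RNA (vertical axis, TMM-scaled CPM) against methylated reads summed over 6 promoter CpGs (horizontal axis, %), 1 point per rat. RNA and RRBS libraries were joined by replicate number, with circles, squares and triangles for replicates 1, 2 and 3. BN rats sit at 0 to 1.45% and 1.96 to 6.27 CPM, and CD rats at 0 to 49.3% and 10.3 to 16.6 CPM.

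For RT1-CE7 the study's table lists 1 CpG, in an exon of the gene that is also an intron of RT1-CE12, and it was found at position 4697956 of chromosome 20 (Rnor_6.0, minus strand). In non-pregnant rats it had 0 to 8.33% methylated reads in CD and 4.0 to 14.3% in BN, and on day 18 0 to 3.03% in CD and 7.69 to 27.3% in BN, on 7 to 82 reads. The day 18 groups did not overlap, which is a description, since the CpG was listed for that comparison. In non-pregnant rats, which overlapped, BN was 6.16 points higher and did not pass (adjusted p = 1 with at least 5 reads per rat, limma-moderated logistic model). The difference at this 1 exon CpG ran opposite in sign to that at the RT1-CE5 promoter, which is a description only.

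The 12 RNA libraries held 8274159 to 11879451 reads on genes, 24.4 to 27.5% of all entries in the table. Podocyte markers (Nphs1 and Podxl) and proximal tubule markers (Slc34a1 and Slc5a2) summed to 529 to 823 and 1513 to 3324 CPM. With pregnancy in CD rats Nphs1 (-0.58, adjusted p = 0.0632) and the phosphate transporter Slc34a1 (-0.47, adjusted p = 0.0818) fell by the edgeR test. RRBS libraries gave 1605494 to 2230970 CpGs of at least 5 reads each. The labels do not say more of how replicates were set up than that each is a separate rat.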

How the data were processed

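RNA-seq and RRBS were made from the same 12 kidneys. Per the labels and methods, the authors aligned RNA reads to Rnor_6.0 with STAR 2.5.2 and counted them per Ensembl gene with HTSeq 0.6.1. The deposited RNA values are raw counts. RRBS reads were trimmed with Trim Galore 0.4.5 and aligned with Bismark, and the deposited files give coverage and the percent of methylated and unmethylated reads per CpG, with methylKit 1.16.1 named among the tools. Methylated reads were recovered here as coverage times percent.

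RNA was tested with edgeR 4.0.16 (R 4.3.3) in 1 quasi-likelihood fit of 4 groups after filterByExpr and TMM scaling, with Benjamini-Hochberg adjustment over all 14212 genes. Calls needed an adjusted p below 0.1 and, except for the interaction, a change of more than 25%. Gene counts of 8274159 to 11879451 per library set the precision. Each CpG read 10 times or more in every rat was tested with a logistic model of the 6 rats compared, an F test whose dispersion was moderated with limma 3.58.1 (trend over coverage, prior from CpGs at 10 to 90%, never under 1), and called at an adjusted p under 0.05 with over 10 points. Both tests recovered known changes when tested on simulated data. Recovery of a change as small as that of RT1-CE7 with pregnancy, or at the BN level of RT1-CE5, was not tested. Recovery of CpG differences as small as those at RT1-CE5 was not tested either.

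Symbols came from the study's gene table, of which 3030 of 3064 paired with 1 identifier by fold change and mean level, and 2.9% still found an identifier with the sign turned. Columns of the authors' own comparisons (fold changes, differences, p) were used to pair names and to find CpGs (within 6e-05 points), and none of their values is printed. Finding CpGs in this way was chosen after seeing the data. The members and lists were chosen with earlier results of these data known. Genes named were RT1-CE5 and RT1-CE7, up to 12 class I genes past the thresholds by p in non-pregnant rats, up to 4 per other list by p, and the 5 most like each gene. A member each of 2 lists is not reported here and is left out of their counts. Thick limb and collecting duct markers had no symbol (0 of 3). Libraries of a group differed by more than sampling noise (chi-square per gene 5.16 to 12.2), so none was counted as a duplicate. The alternatives tried were DESeq2, upper-quartile scaling, other filters and thresholds, only the 6 libraries compared, leaving out each library, a replicate block, and other read minimums and dispersions.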

Additional observations from a re-analysis of the deposited data

Results flagged for a closer look

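The change with pregnancy differed between BN and CD rats for 3 genes of the lists set beside RT1-CE5 and RT1-CE7. The test was the strain by pregnancy interaction of edgeR's quasi-likelihood fit, which 0.943% of all genes passed. These genes were 1 of 14 class I, 1 of 9 antigen presentation and 1 of 3 class II genes, with 0 of 19 interferon genes. The lists hold symbols chosen by p in these samples, so these counts are no independent evidence. The class I gene RT1-CE15 had a difference of 1.66 on the log2 scale (SE 0.39, adjusted p = 0.0946). Its means were 14.5 CPM for CD-NP and 5.28 for CD-P18, and 24.3 CPM for BN-NP and 27.7 for BN-P18. The class I transactivator Nlrc5 had a difference of 1.07 (SE 0.22, adjusted p = 0.0551), and the class II transactivator Ciita one of 1.11 (SE 0.22, adjusted p = 0.0428). These calls depended on the setting, with 0 to 2 class I, 0 to 4 antigen presentation and 0 to 2 class II genes passing. The call of RT1-CE15 was lost without CD-NP replicate 2 or 3, CD-P18 replicate 1 or 2, or any BN rat, and no class II gene passed without CD-P18 replicate 1 or BN-NP replicate 2. No antigen presentation gene passed without CD-NP replicate 3, CD-P18 replicate 1 or 3, or BN-NP replicate 1 or 2. RT1-CE5 and RT1-CE7 did not pass this test, at 0.68 and 0.78.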

How the results depend on the processing

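The lower RNA of RT1-CE5 and RT1-CE7 in BN kept its direction and its side of the thresholds under every alternative run. Leaving out each of the 12 libraries in turn gave -2.64 to -2.10 and -1.86 to -1.50 for RT1-CE5 (non-pregnant, day 18) and -2.20 to -2.04 and -1.46 to -1.14 for RT1-CE7. The rise of RT1-CE7 in BN rats (0.62 to 0.73 without single libraries) passed in 5 of these 12 fits, and at 0.67 it missed an adjusted p under 0.05 with a change over 50%. RT1-CE5 in BN rats ran from 0.54 to 1.12 and never passed. The CD pregnancy values ran from -0.0683 to 0.21 for RT1-CE5 and from -0.30 to 0.0198 for RT1-CE7. Their signs turned when CD-NP replicate 3 (RT1-CE5) or CD-P18 replicate 2 (RT1-CE7) was absent. The interaction of RT1-CE7 passed with DESeq2 (0.78, adjusted p = 0.0556), with no filter on low counts (0.78, adjusted p = 0.0441) and without CD-P18 replicate 3, and ran from 0.65 to 0.97 without single libraries, that of RT1-CE5 from 0.44 to 1.02. With a replicate block the RT1-CE7 interaction was 0.80 (adjusted p = 0.0539) and passed, but the numbers only name rats: same-numbered libraries deviated together with correlations of -0.19 to 0.27, over 0.1 in 2 of 12 pairs. The block changed no other call of RT1-CE5 or RT1-CE7.

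Calls among the 6 promoter CpGs of RT1-CE5 on day 18 are a description, since 4 were listed for that comparison. None passed with 10 reads or more and dispersion moderated by limma (6 at an unadjusted p under 0.05), 1 passed with at least 5 reads, 4 with no overdispersion, and 0 to 4 without single libraries, 4 without CD-P18 replicate 1 and 1 without CD-P18 replicate 2. At least 20 reads left no CpG. The CpG of RT1-CE7 fell under 10 reads in a rat, so of its alternatives only the minimum of 5 reads was run.

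Between settings, class I calls numbered 8 to 11 in non-pregnant and 11 to 15 on day 18 strain comparisons, and 4 to 5 (CD) and 0 to 5 (BN) with pregnancy. Antigen presentation calls with pregnancy numbered 0 to 1 in CD and 0 to 4 in BN, and interferon calls 14 to 19 and 4 to 19. Calls over all genes with pregnancy in BN ran from 27 to 352. Depth limits RT1-CE5 in BN (18 to 59 reads) and methylation in BN-NP replicate 3 (10 to 12 reads).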

Other observations

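Class I-like genes outside the RT1 complex were also read. Azgp1, a soluble class I-like protein, was lower in BN than in CD by -1.78 on the log2 scale in non-pregnant rats (adjusted p = 0.000531, edgeR's quasi-likelihood test) and by -0.91 on day 18. Cd1d1, which presents lipids to natural killer T cells, was lower by -0.64 in non-pregnant rats (adjusted p = 0.0194), with 0.13 on day 18. With pregnancy Cd1d1 was lower in CD rats (-0.48, adjusted p = 0.0942). Of the class II genes, RT1-Bb was higher in BN on day 18 by 1.39 (adjusted p = 0.0200) and RT1-DOb lower by -1.99 (adjusted p = 0.00883), both by edgeR. The endothelial markers Cdh5, Flt1 and Tek summed to 271 to 343 CPM over the 12 rats, and 0 of the 3 passed in any of the 4 comparisons.

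At the 7th covered promoter CpG of RT1-CE5, 37 bases before the start and read in 11 rats, CD-NP replicate 3 had 50% methylated of 8 reads, CD-NP replicate 1 15.4% of 13, CD-P18 replicate 3 14.3% of 28 and CD-P18 replicate 2 7.14% of 14. The other CD rats and the 5 BN rats with a value were at 0.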
